A study of Mus musculus with 6 samples.

Results

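Chromatin accessibility at 31 mouse genes of ferroptosis and iron handling was described in CD8+ T cells from ATAC-seq peak lists. A peak belonged to a gene if that gene was the nearest of 21887 protein-coding RefSeq genes to the peak's summit, within 100 kb. This gave 1092 of 573921 peaks. Merged regions, assigned in the same way by their midpoint, numbered 244 of 134174 and held 1089 of these peaks. The genes form 4 lists: glutathione and cystine (6 genes, 53 regions), iron (9 genes, 51 regions), lipid peroxidation (11 genes, 99 regions) and protective pathways (5 genes, 41 regions). The rule uses gene names and no measured values.

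The CD8+ T cells came from mouse spleen, were enriched by removal of other cells, were activated through CD3 (antibody at 5 µg/mL) and CD28 (antibody at 1 µg/mL), and spent 48 h below a porous membrane with tumour cells above it. The tumour cells, from a lung adenocarcinoma with resistance to PD-1 treatment, were controls (Res-ctrl) or carried a hairpin RNA that knocks down Fabp7, a fatty acid binding protein (Res-shFabp7). The hairpin was thus in the tumour cells and the accessibility was read in the T cells, with no group of T cells cultured alone. The question was whether the tumour cells' Fabp7 status changes open chromatin in the T cells beside them. There were 3 libraries per group, labelled biological replicates, and the sources used here do not give the age, sex or strain of the mice. P-values measure the spread between these 3 libraries.

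Ferroptosis is a form of cell death in which iron drives the peroxidation of membrane lipids. Cystine enters through the transporter of Slc7a11 and Slc3a2 and feeds glutathione synthesis by Gclc and Gclm, and Gpx4 uses glutathione to reduce lipid peroxides. Transferrin receptor (Tfrc), ferritin (Fth1, Ftl1), ferroportin (Slc40a1) and ferritin turnover through Ncoa4 set the pool of free iron. Acsl4 and Lpcat3 place oxidisable fatty acids in membranes, and Aifm2, Gch1 and Dhodh limit peroxidation without Gpx4. In T cells, Gpx4 is known to be needed for survival after activation.

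Promoter stretches of 4 genes of the glutathione and NRF2 pathways are shown. Each holds a motif of a stress-response factor inside a merged region that was called in all 6 libraries. A merged region joins the peaks of all libraries, so the motif need not lie in the peak of each library. Sequences are from RefSeq, build GRCm38.p6, written 5′ to 3′ on the gene's strand. Capitals mark the motif. For Slc7a11 and Chac1 it is the ATF4 motif TGATGNAA, searched on both strands. ATF4 is a transcription factor of the amino acid stress response, with both genes among its known targets. The Slc7a11 stretch is chr3:50443624-50443713 on the minus strand, with motifs from -66 to -59 and from -47 to -40 relative to the transcription start. The Chac1 stretch is chr2:119351012-119351101 on the plus strand, with its motif from -193 to -186.
Slc7a11: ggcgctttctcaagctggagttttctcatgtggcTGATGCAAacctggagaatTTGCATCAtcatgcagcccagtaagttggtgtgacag
Chac1: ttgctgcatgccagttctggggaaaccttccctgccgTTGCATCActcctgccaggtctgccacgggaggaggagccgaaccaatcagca

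For Gclm and Nfe2l2 the capitals mark the antioxidant response element core TGACNNNGC, searched on both strands, the site used by NRF2, the factor that Nfe2l2 encodes. The Gclm stretch is chr3:122245387-122245476 on the plus strand, with the motif from -134 to -126. The Nfe2l2 stretch is chr2:75704824-75704913 on the minus strand, with the motif from -240 to -232. This motif lies at the edge of the merged region, which ends at position 75704904, and the stretch extends past that end.
Gclm: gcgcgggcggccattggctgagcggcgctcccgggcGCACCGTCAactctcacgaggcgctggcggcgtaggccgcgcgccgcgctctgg
Nfe2l2: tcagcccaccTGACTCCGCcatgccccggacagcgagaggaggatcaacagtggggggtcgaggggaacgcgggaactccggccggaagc

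The RefSeq promoter table, with windows from 250 bases before to 50 after a start, held 23 of the 31 genes. Gclc, Slc40a1, Hmox1, Alox15, Alox5ap, Vdac2, Vdac3 and Dhodh were not in it. Some genes have several windows, and the 23 genes had 33. The ATF4 motif was found in 2 of these 33 windows, at Slc7a11 and Chac1, and in 3.97% of all 32851 windows. Among windows open in all 6 libraries it was in 1.93%. The antioxidant element was found in 3 of the 33, at Gclm, Nfe2l2 and Ncoa4, and in 12.4% of all windows and 14.6% of open ones. Of 2 further motifs searched on both strands, the AP-1 motif TGANTCA was in 1 of the 33, at Cisd1, and in 7.81% of all windows. The ETS motif CCGGAAG was in 4 of the 33, at Nfe2l2, Pcbp1, Slc3a2 and Sat1, in 8.86% of all windows and in 19.6% of open ones. A match describes letters in the window and not a bound site.

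The 6 lists held 100243 to 105796 peaks for Res-shFabp7 and 82153 to 96310 for Res-ctrl. The most frequent background pileup of a list, a relative measure of depth, was 1.03, 0.868 and 0.959 for Res-shFabp7 replicates 1, 2 and 3 and 0.709, 0.608 and 1.01 for Res-ctrl. Replicate 3 of Res-ctrl lay within the range of the Res-shFabp7 libraries, while the other two were below it. All 11 CD8 T cell markers, Cd3e, Cd8a and Cd8b1 among them, had a region in all 6 libraries. So did 7 of 7 CD4 and regulatory T cell genes, 6 of 8 B cell genes, 5 of 8 NK cell genes, 7 of 11 myeloid genes, 6 of 10 erythroid and megakaryocyte genes and 4 of 10 epithelial genes. Of the defining markers, Ms4a1 of B cells and Krt8, Krt19 and Sftpc of epithelial cells had no peak in any library. Per 1000 peaks of the library, the B cell markers took 0.268, 0.227 and 0.259 with Res-shFabp7 and 0.212, 0.170 and 0.208 with Res-ctrl, without overlap, and with equal list lengths the groups overlapped. The NK cell markers took 0.449, 0.425 and 0.459 against 0.530, 0.475 and 0.467, without overlap, also with equal lists (0.438, 0.450 and 0.463 against 0.536, 0.475 and 0.511). The CD4 and regulatory T cell genes took 1.28, 1.26 and 1.24 against 1.34, 1.34 and 1.34, without overlap, and overlapped with equal lists. The shares of the epithelial markers (0.249, 0.255 and 0.269 against 0.236, 0.256 and 0.208) and of the myeloid markers (0.363, 0.454 and 0.419 against 0.424, 0.402 and 0.384) overlapped. So did those of the CD8 T cell markers and of the erythroid and megakaryocyte markers. The part of other cells in the results was not tested.

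Most of the 31 genes had open regions assigned to them, inside the gene or within 100 kb of it. A peak was called at 29 of them in at least 1 library, and 28 had a region called in all 6 libraries, against 14067 of all 21887 genes (64.3%). No peak was assigned to Slc40a1, the only known cellular iron exporter, or to Alox5, the arachidonate 5-lipoxygenase. Aifm2, a quinone reductase that acts apart from glutathione, had 2 regions, neither of them called in all 6 libraries. Of the 244 regions, 110 (45.1%) were called in all 6 libraries, close to the 42.2% of all regions, and 51 (20.9%) in a single library, against 23.3% of all. In the iron list 29 of 51 regions (56.9%) were open in every library. The other 3 lists had 41.5% (glutathione and cystine), 41.4% (lipid peroxidation) and 43.9% (protective pathways).

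**Figure D1:**
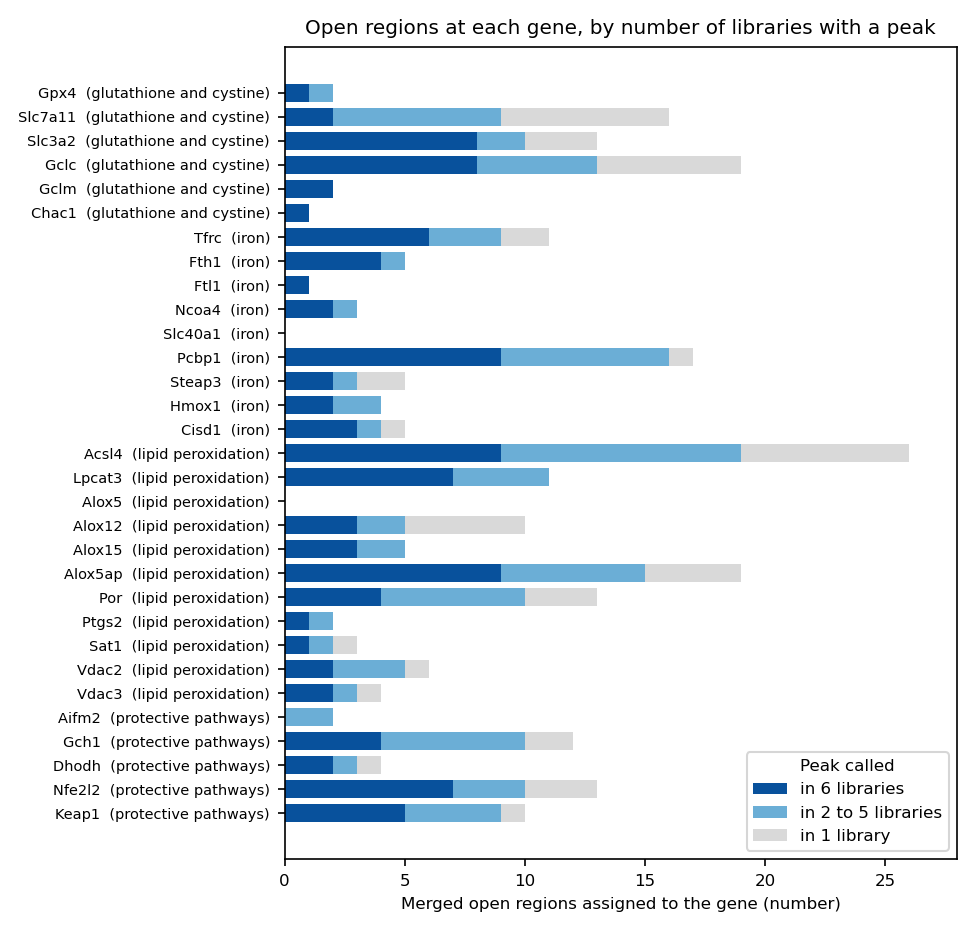
Number of merged open regions assigned to each of the 31 genes (horizontal axis), split by how many of the 6 libraries had a peak there. Acsl4 had 26 regions and Slc40a1 and Alox5 had none.

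The number of regions differed widely between genes. Acsl4 had 26 regions, 9 of them in all 6 libraries, and Gclc and Alox5ap, the 5-lipoxygenase activating protein, had 19 each, with 8 and 9 in all 6. Pcbp1, an iron chaperone, had 17 regions with 9 in all 6, and all but 1 of the 17 lay outside its short gene. Slc7a11 had 16 regions, but only 2 of them were in all 6 libraries. Slc3a2 had 13 regions with 8 in all 6, Nfe2l2 13 with 7, Por, the cytochrome P450 reductase, 13 with 4, and Gch1, which starts tetrahydrobiopterin synthesis, 12 with 4. Tfrc had 11 with 6, Lpcat3 11 with 7, Alox12 10 with 3 and Keap1, the inhibitor of NRF2, 10 with 5.

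The remaining genes had few regions. Vdac2 had 6 regions with 2 in all 6 libraries, Fth1 5 with 4, Cisd1 5 with 3, Alox15 5 with 3 and Steap3, a ferric reductase, 5 with 2. Hmox1, which frees iron from haem, Vdac3 and Dhodh had 4 regions each, with 2 in all 6. Ncoa4 had 3 with 2, and Sat1, an enzyme of polyamine breakdown, 3 with 1. Gpx4 and Ptgs2 had 2 regions with 1 in all 6, and Gclm had 2 with both in all 6. Ftl1 and Chac1, whose enzyme degrades glutathione, had a single region each, called in all 6 libraries.

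At the annotated starts, 19 of the 23 genes with a promoter window had a region in all 6 libraries (82.6%), against 51.2% of 17492 protein-coding symbols. Ptgs2, the cyclooxygenase used as a marker of ferroptosis, had a start region in 5 libraries, with a fold over background of 5.43, 6.96 and 5.61 with Res-shFabp7 and of 4.68 and 5.98 in Res-ctrl replicates 1 and 3. No start region was called at Alox5, Alox12 or Aifm2. Fold is the authors' value for how far a summit rises over its local background.

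Height was then compared on ranks, because depth differed between libraries. For each library the height rank is the percentage of the 56610 regions called in all 6 libraries that had a lower summit pileup. By this rank the starts of Por, Lpcat3, Fth1, Ftl1, Gclm, Gpx4 and Tfrc, and the higher of 2 at Ncoa4, lay at 93.6% or more in every library. The Gpx4 start at chr10:80053141-80054326 ranked at 94.8%, 94.2% and 94.7% with Res-shFabp7 and at 95.7%, 93.6% and 95.1% with Res-ctrl. The Tfrc start at chr16:32608577-32609467 ranked at 95.8%, 94.1% and 94.7% against 95.5%, 94.4% and 94.8%. At both genes the groups overlapped.

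In the iron list the starts of both ferritin genes, Fth1 and Ftl1, had the highest median height rank, 96.9% each. The start region of Fth1, the heavy chain, is chr19:9982264-9983371. Its fold was 25.5, 23.8 and 27.5 with Res-shFabp7 and 27.2, 21.8 and 25.1 with Res-ctrl, and its height rank was 96.9%, 96.1% and 97.1% against 97.5%, 96.2% and 97.0%. The Ftl1 start, chr7:45458938-45460104, ranked at 97.5%, 96.9% and 96.1% against 97.0%, 97.7% and 96.7%. The Gclm start, the highest region of its list at chr3:122245285-122246342, ranked at 96.8%, 96.0% and 95.3% against 97.3%, 94.0% and 97.1%. By the same median rank, Dhodh, a mitochondrial enzyme of pyrimidine synthesis, had the highest region of the protective list, chr8:109608302-109608824. That region crosses the edge of the gene at position 109608699, with its midpoint inside, and Dhodh had no promoter window. Its fold was 28.3, 28.9 and 28.4 against 31.0, 27.8 and 28.9. The groups overlapped at these 4 regions.

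The start of Acsl4, the acyl-CoA synthetase that activates polyunsaturated fatty acids, ranked at 79.5%, 81.8% and 81.8% with Res-shFabp7 and at 86.5%, 83.4% and 78.4% with Res-ctrl (chrX:142390220-142391113). The Nfe2l2 start, chr2:75703438-75704904, ranked at 88.8%, 89.1% and 91.7% against 90.8%, 92.0% and 93.6%. The Slc3a2 start, chr19:8713291-8713979, ranked at 88.5%, 90.5% and 88.2% against 89.1%, 86.2% and 88.6%. None of these starts separated the groups.

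With the highest start region of each gene taken, Slc7a11 ranked lowest of the 19 genes. The region chr3:50443349-50443983, which contains both ATF4 motifs printed above, had a pileup of 24, 10 and 19 with Res-shFabp7 and of 7, 10 and 9 with Res-ctrl. Its fold was 9.91, 5.20 and 8.92 against 4.68, 6.84 and 4.98. Replicates 1 and 3 of Res-shFabp7 were high, while replicate 2 lay within the Res-ctrl values. The difference in height score, Res-shFabp7 minus Res-ctrl, was 0.66 (SE 0.41, adjusted p = 0.485, limma with Benjamini-Hochberg adjustment), so it did not exceed the spread between libraries. The height score is the rank on the scale of a standard normal distribution.

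**Figure D2:**
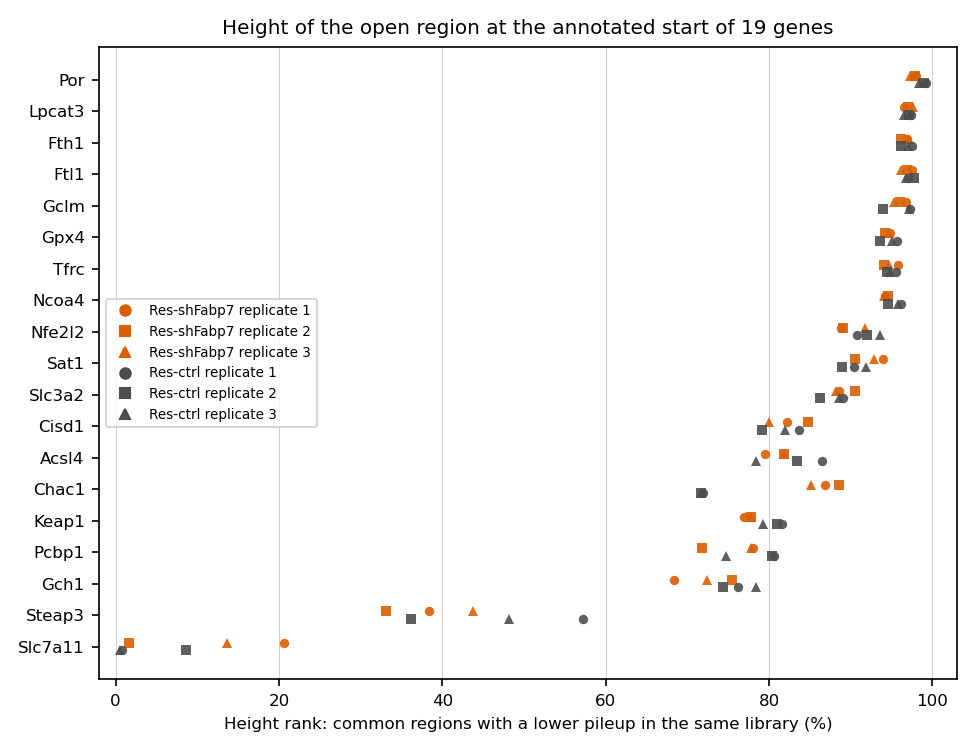
Height rank of the start region in each library (percentage of the 56610 common regions with a lower pileup) for the 19 genes with a start region in all 6 libraries; where a gene has several, the highest is shown. Chac1 ranks at 85.1% to 88.5% with Res-shFabp7 and at 71.7% to 71.9% with Res-ctrl, and Slc7a11 has the lowest ranks.

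The height score of the 110 regions called in all 6 libraries was compared between the groups in a limma fit over all 56610 common regions. No region at the 31 genes passed an adjusted p of 0.05, and the smallest adjusted p was 0.105. Over all common regions 1 passed (0.00177%). At an unadjusted p under 0.05, 12 of the 110 regions were higher with Res-shFabp7, against 8.27% of all common regions, and 7 were lower, against 7.4% of all. The 12 higher regions were at Gclm, Chac1, Slc3a2 (2 regions), Gch1 (2 regions), Nfe2l2, Lpcat3, Acsl4, Por, Hmox1 and Tfrc, and the 7 lower ones at Alox5ap, Pcbp1 (2 regions), Por, Fth1, Acsl4 and Cisd1. The median score difference was -0.0136 over the 110 regions and -0.0105 over all common regions.

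In the glutathione and cystine list 4 of 22 regions were higher at an unadjusted p under 0.05 and 0 lower, with a median score difference of 0.08. In the protective list 3 of 18 were higher and 0 lower, with a median of 0.12. The iron list had 2 higher and 4 lower of 29, with a median of -0.04, and the lipid peroxidation list 3 higher and 3 lower of 41, with a median of -0.03. Of all common regions, 8.27% were higher and 7.4% lower at such a p, with a median of -0.0105. Whether the lists differ from each other or from all regions was not tested.

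**Figure D3:**
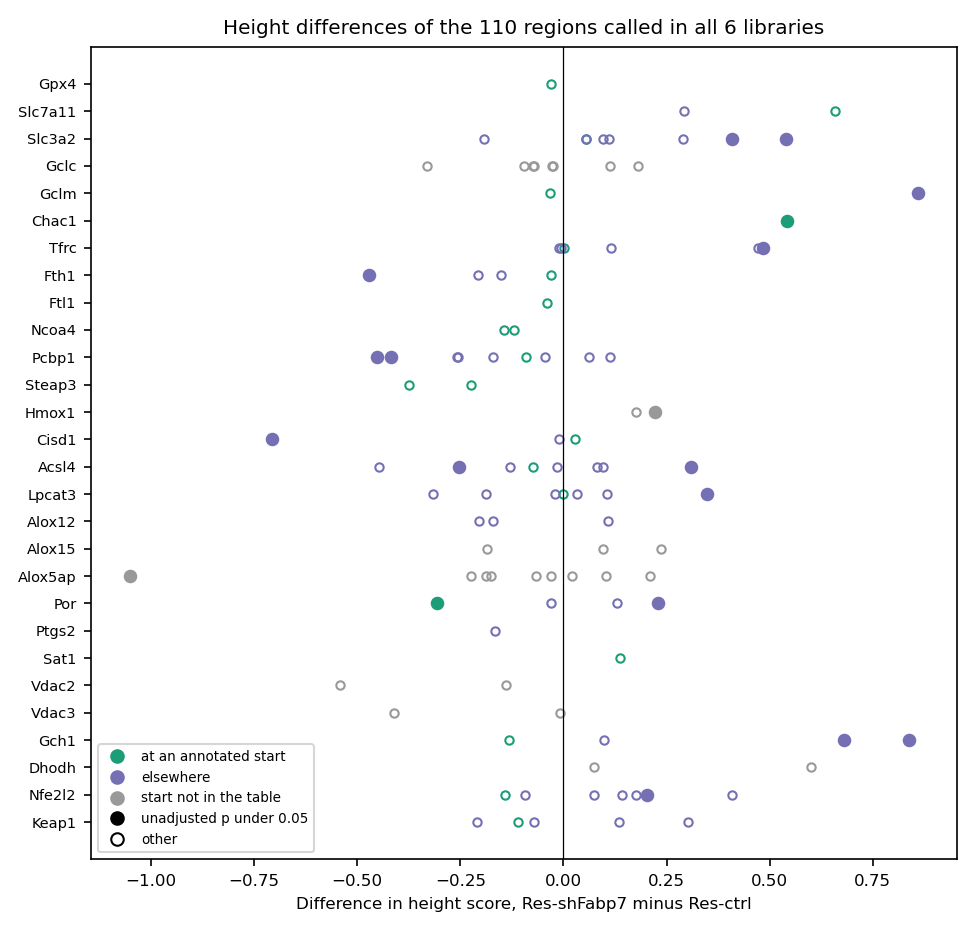
Difference in height score (Res-shFabp7 minus Res-ctrl) for each of the 110 regions called in all 6 libraries, by gene; filled points have an unadjusted p under 0.05 and colours give the position relative to annotated starts. The points spread from -1.05 at Alox5ap to 0.86 at Gclm, and none passed an adjusted p of 0.05.

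The smallest p belonged to a region inside Gclm, the regulatory subunit of the enzyme that begins glutathione synthesis. The region chr3:122252999-122253317 lies 7601 bp downstream of the start and is separate from the tall start region of the same gene. Its pileup was 26, 20 and 27 with Res-shFabp7 and 9, 9 and 13 with Res-ctrl, and its fold was 13.0 ± 1.56 against 6.35 ± 0.574 (SD, n = 3). All 3 Res-shFabp7 libraries were above all 3 Res-ctrl libraries in pileup and in fold. Res-ctrl pileups of 9, 9 and 13 went with relative depths of 0.709, 0.608 and 1.01. Res-shFabp7 pileups of 26, 20 and 27 went with depths of 1.03, 0.868 and 0.959. The part of depth in this pileup gap was not tested. The score difference was 0.86 (SE 0.11, limma, unadjusted p = 0.000182, adjusted p = 0.105). With relative depth as a covariate it was 0.89, with an adjusted p of 0.326.

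The second was the start region of Chac1, chr2:119350731-119351603, which contains the ATF4 motif printed above. Its pileup was 150, 154 and 137 with Res-shFabp7 and 62, 56 and 88 with Res-ctrl, and the groups did not overlap. The height rank was 86.9%, 88.5% and 85.1% against 71.9%, 71.7% and 71.7%. The score difference was 0.54 (SE 0.08, limma, unadjusted p = 0.000374, adjusted p = 0.113). The fold over the local background was 28.3, 30.9 and 28.5 against 27.0, 24.1 and 25.9, also without overlap but closer together. Ranked by fold, the score difference was 0.26, with an adjusted p of 0.452.

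Slc3a2, the heavy chain of the cystine transporter, had a region inside the gene at chr19:8712850-8713152, 896 bp from the start, with a pileup of 87, 77 and 74 with Res-shFabp7 and of 35, 35 and 57 with Res-ctrl. Its fold was 6.57 ± 0.405 against 4.71 ± 0.422 (SD, n = 3), again without overlap. The score difference was 0.41 (SE 0.08, limma, unadjusted p = 0.00177, adjusted p = 0.144). Where peaks up to 200 bp apart were merged, this region joined the taller start region 138 bp away. The score difference of the joined region was 0.05, and that of the start region by itself was also 0.05.

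A pair of regions in the 5 of smallest p were lower with Res-shFabp7. The region chr5:149265207-149265429 inside Alox5ap, which presents arachidonic acid to 5-lipoxygenase, had a pileup of 17, 11 and 11 with Res-shFabp7 and of 15, 15 and 29 with Res-ctrl. Its fold was 4.80, 3.85 and 3.63 against 5.61, 5.55 and 7.43, and the groups were apart in fold but not in pileup. The score difference was -1.05 (SE 0.19, limma, unadjusted p = 0.00135, adjusted p = 0.135). Where peaks up to 200 bp apart were merged, this region joined chr5:149265508-149265760, 78 bp away, which had an equal or higher pileup in every library. The score difference of the joined region was -0.19, and that of the neighbour by itself was -0.18. Alox5ap is mainly expressed by myeloid cells, and the part of such cells in this difference was not tested.

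At Pcbp1 the region chr6:86497465-86497901, 26797 bp from the gene, had a fold of 9.49, 8.47 and 9.09 with Res-shFabp7 and of 9.32, 8.61 and 9.62 with Res-ctrl, which overlap. Its pileup, 21, 19 and 21 against 21, 17 and 26, overlapped as well. Its height rank was 15.4%, 15.8% and 17.2% against 32.9%, 27.8% and 25.6%, which do not overlap. The score difference was -0.42 (SE 0.09, limma, unadjusted p = 0.00273, adjusted p = 0.153), and -0.18 where regions were ranked by fold.

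**Figure D4:**
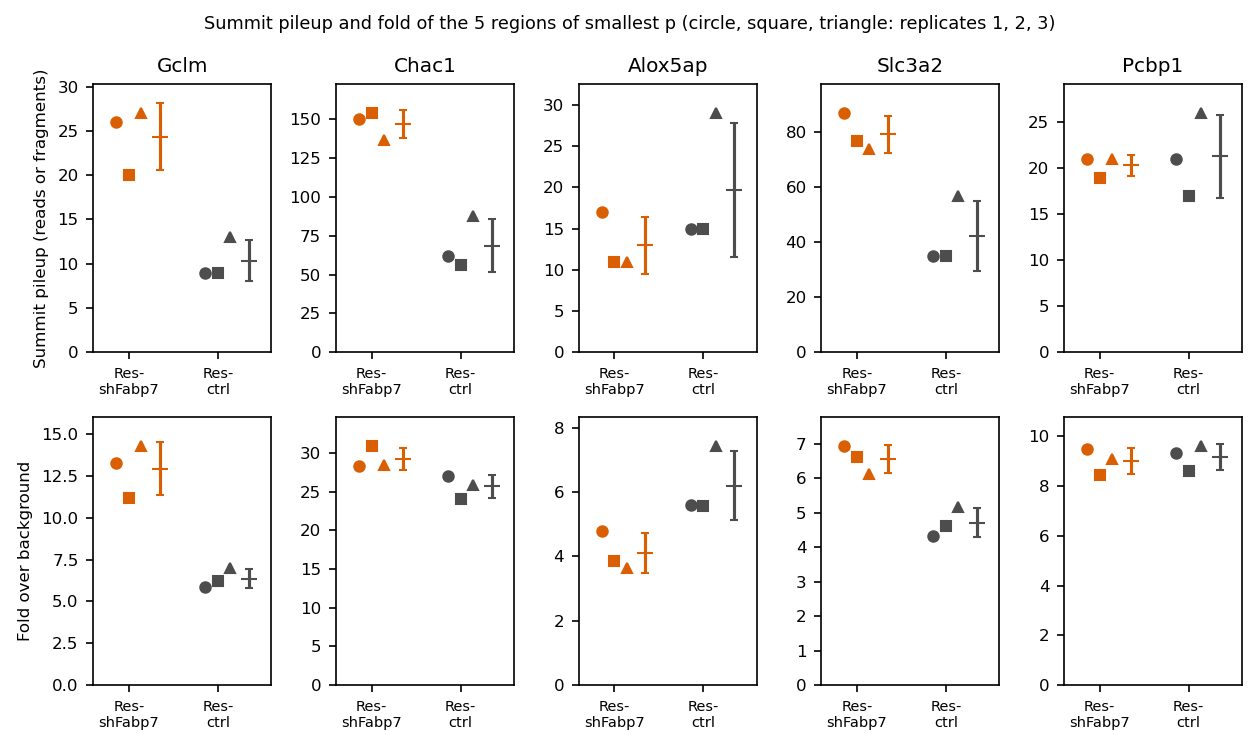
Summit pileup (upper row) and the authors' fold over background (lower row) in each library for the 5 regions of smallest p; bars give the mean and SD of 3 libraries per group. At Gclm, Chac1 and Slc3a2 both measures separate the groups. At each of them the relative gap is smaller in fold than in pileup, most of all at Chac1.

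The highest region of the lipid peroxidation list was the start of Por, the reductase that supplies electrons for lipid oxidation, chr5:135688729-135689416. It ranked at 98.0%, 97.8% and 97.2% with Res-shFabp7 and at 99.2%, 99.0% and 98.4% with Res-ctrl, with no overlap. The score difference was -0.31 (SE 0.10, limma, unadjusted p = 0.0208, adjusted p = 0.239). The fold was 28.3, 29.1 and 26.5 against 31.5, 28.1 and 30.3, and overlapped.

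A region was counted as called only with 1 group if all 3 libraries of that group and none of the other had a peak. Of the 244 regions, 3 were called only with Res-shFabp7, against 2.28% of all regions, 1 each at Slc7a11, Acsl4 and Por. A further 2, at Pcbp1 and Lpcat3, were called only with Res-ctrl, against 0.155% of all. The region inside Slc7a11, chr3:50406838-50407062, lies 36663 bp from the start and had a fold of 6.91, 6.96 and 5.10. That inside Acsl4, chrX:142378200-142378325, had a fold of 3.46, 3.27 and 3.22, and that inside Por, chr5:135723837-135723926, one of 5.43, 4.28 and 4.59. The Por peaks were among the weakest of their lists, with 9.94% or less of the list's peaks lower in pileup. With the lists cut to the 82153 strongest peaks each, none of the 3 was called only with Res-shFabp7.

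Both regions called only with Res-ctrl lay beside a region open in all 6 libraries. The one at the Pcbp1 start, chr6:86526142-86526324, was 96 bp from the start region chr6:86526421-86527405 and had a fold of 3.66, 3.31 and 3.50. The one inside Lpcat3, whose enzyme builds arachidonate into phospholipids, was chr6:124688728-124688851, at 102 bp from chr6:124688446-124688625. Its fold was 4.77, 4.12 and 4.20. Both remained with equal lists, and neither was called only with Res-ctrl where peaks up to 200 bp apart were merged.

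Peaks per gene were compared by whether the groups' counts overlapped. For 2 of the 31 genes, every Res-shFabp7 library had more peaks than every Res-ctrl library, against 11.3% of 16425 genes with a peak. Gclc, the catalytic subunit of glutathione synthesis, had 14, 14 and 16 peaks against 12, 10 and 12, and Por had 10, 10 and 11 against 8, 6 and 8. The exact permutation test, two-sided, gave p = 0.1 for each, the smallest that 3 against 3 allows. For 0 genes were all counts lower, against 0.536% of genes. With equal lists the groups were apart for 0 of the 31 genes in either direction, against 2.93% and 2.7% of 15914 genes. Slc7a11 had 11, 10 and 6 peaks against 6, 4 and 6, Acsl4 17, 21 and 21 against 15, 16 and 17, and Nfe2l2 13, 11 and 12 against 9, 9 and 11, each with touching counts.

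The 31 genes held 190, 193 and 190 peaks with Res-shFabp7 and 174, 163 and 182 with Res-ctrl. Per 1000 peaks of the library this was 1.85 ± 0.0434 against 1.97 ± 0.0809 (SD, n = 3), and the groups overlapped at 1.90 and 1.89. The iron list took 0.392, 0.369 and 0.419 of 1000 peaks with Res-shFabp7 and 0.495, 0.560 and 0.467 with Res-ctrl, without overlap. Its number of peaks was almost the same, 41, 39 and 42 against 42, 46 and 45, in longer lists. With equal lists its share was 0.402, 0.426 and 0.487 against 0.499, 0.560 and 0.475, which overlapped. The protective list took 0.306, 0.321 and 0.309 against 0.342, 0.353 and 0.322 and overlapped with equal lists. The other 2 lists overlapped in both.

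**Figure D5:**
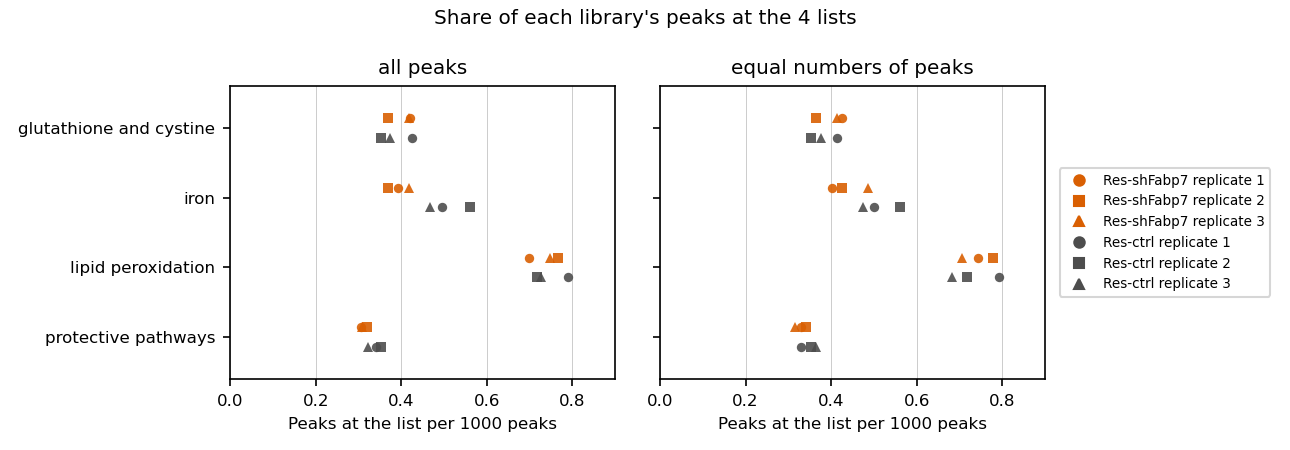
Peaks at each of the 4 gene lists per 1000 peaks of the library, with all peaks (left) and with the 82153 strongest peaks of each library (right). The iron shares of Res-shFabp7 lie below those of Res-ctrl with all peaks, and the groups overlap with equal numbers.

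Another 104 genes of the same pathways, in 4 lists, were read for context. Of them, 102 had a peak, with 793 regions, of which 13 were called only with Res-shFabp7 (against 2.28% of all regions) and 2, at Sqle and Sesn2, only with Res-ctrl (against 0.155% of all). Of 367 regions in the height comparison, 0 passed an adjusted p of 0.05, 18 were higher at an unadjusted p under 0.05, against 8.27% of all common regions, and 25 lower, against 7.4%. The median score difference was -0.00181. The smallest p was at Spr, which completes tetrahydrobiopterin synthesis after Gch1, with a score difference of 1.01 (SE 0.11, limma, adjusted p = 0.105, chr6:85117897-85118107). In the list of Spr, radical-trapping and mevalonate, 2 of 59 regions were higher and 5 lower at an unadjusted p under 0.05. Gch1 itself had 4 regions in the height comparison. Those at chr14:47165203-47165529 and chr14:47172146-47172467 inside the gene had score differences of 0.84 and 0.68, with adjusted p of 0.235 and 0.213 in the same limma fit. The Gch1 start region and chr14:47188041-47188237 had -0.13 and 0.10, with adjusted p of 0.525 and 0.728.

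In the related glutathione and NRF2 list, regions of small p included, among higher ones, Tkt and Mafk (score differences of 0.51 and 0.33), and among lower ones, Atf3, Me1 and Tkt (-0.28, -0.76 and -0.37). In the other lists the 3 regions of smallest p in each direction are given. In the related iron list the higher ones were at Hmox2, Cisd2 and Aco1 (0.39, 0.25 and 0.51) and the lower ones at Cybrd1, Hfe and Bach1 (-0.35, -0.30 and -0.35). In the lipid list the higher ones were at Fabp4, Mboat1 and Nox1 (1.07, 0.90 and 0.80) and the lower ones at Vdac1, Agps and Scd2 (-0.63, -0.38 and -0.34). In the radical-trapping and mevalonate list the higher ones were at Spr, Ptges and Chmp6 (1.01, 1.23 and 0.17) and the lower ones at Chmp6, Pdss2 and Coq2 (-0.25, -0.31 and -0.24). Aco1 and the higher Chmp6 region had an unadjusted p of 0.0551 and 0.0864, and none of these regions passed an adjusted p of 0.05 in limma.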

How the data were processed

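ATAC-seq of 6 libraries was analysed from 1 peak list per library. Reads were trimmed (Trim Galore 0.6.5, cutadapt 2.8), aligned to mm10 (Bowtie 1.1.2) and used for peak calling (MACS2 2.2.7.1), as these tools are named in the submitters' processing notes. The sources used here do not give read shifting, duplicate removal or the MACS2 mode. The deposited lists hold, per the file headers, the −log10 p-value and −log10 q-value of each peak, its pileup (a coverage signal read at the summit) and its fold (a ratio to local background). They give no read totals, so depth is known only relative to other lists.

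Peaks that overlapped by at least 1 bp were merged, and regions were assigned by their midpoint to the nearest gene within 100 kb. Positions count from 1. Summit pileup was ranked over the 56610 common regions of each library, converted to normal scores and tested with limma 3.58.1 (R 4.3.3) with Benjamini-Hochberg adjustment at 0.05; the fit was tested on simulated data. Python 3.11.15 was used elsewhere. Every one of the 31 genes was named. Values per library were given for regions called only with 1 group, the 5 regions of smallest p, the starts of chosen genes and the highest region of each list. The genes and lists were chosen with earlier results of these data known. Alternatives covered thresholds, equal list lengths, merging, gene distance, height measures, depth and each library left out. The result of 1 gene of the related lists is not reported here.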

Additional observations from a re-analysis of the deposited data

How the results depend on the processing

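Regions called only with Res-shFabp7 numbered 3, but 0 with equal list lengths (all regions 1.13%) and 16 where 2 of 3 libraries sufficed (6.56%, all regions 7.28%). Leaving out 1 library gave 3 to 9. There were 3 without Res-ctrl replicate 2 (1.25%, all regions 2.93%) and 9 without Res-ctrl replicate 3 (3.75%, all regions 5.34%). Those called only with Res-ctrl numbered 2, but 0 with peaks merged across 200 bp (all regions 0.104%). There was 1 inside gene bodies (0.73%, against 0.155% of all regions at any position). There were 6 where 2 of 3 libraries sufficed (2.46%, all regions 1.1%). Leaving out 1 library gave 2 to 4. There were 4 without Res-ctrl replicate 1 (1.67%, all regions 0.515%) and 4 without Res-ctrl replicate 2 (1.67%, all regions 0.571%). The difference in peaks per 1000 was -0.129, and -0.0609 with equal lists. Genes with more peaks in every Res-shFabp7 library numbered 2 (all genes 11.3%), and 0 with equal lists (all genes 2.93%). Regions higher and lower in height score at an unadjusted p under 0.05 numbered 12 and 7, 7 and 4 on ranks of fold, and 7 to 12 and 4 to 7 with 1 library left out, with 7 higher without Res-shFabp7 replicate 1 and 4 lower without Res-ctrl replicate 3. Of all 56610 common regions, 8867 had such a p in either direction, and 7554 on ranks of fold. The number was 6676 without Res-shFabp7 replicate 1 and 9130 without Res-ctrl replicate 3. No region at the 31 genes passed the adjusted threshold in any of these fits.

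Same-numbered libraries did not deviate together (correlations of -0.0245, 0.015 and -0.0158). A fit with the replicate block gave 9 higher and 5 lower at an unadjusted p under 0.05, and 0 passing. Of all 56610 common regions, 8173 had such a p in that fit, in either direction. The score differences of the 5 regions of smallest p kept their sign in all 14 settings, or in 13 for Alox5ap, which was not among the common regions with equal lists. With peaks merged across 200 bp, the Slc3a2 and Alox5ap regions each joined a neighbour of equal or higher pileup. The values there, 0.05 at Slc3a2 and -0.19 at Alox5ap, belong to the joined regions and do not measure these regions alone. The cause was not tested. With relative depths from 0.608 to 1.03, a missing peak in a shallow library does not show closed chromatin.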
